A study of Mus musculus with 8 samples.

Results

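A set of 10 genes for enzymes or enzyme subunits of glycolysis, Hk1, Hk2, Gpi1, Pfkl, Pfkm, Pfkp, Aldoa, Gapdh, Pgk1 and Eno1, was followed in cells labelled as beta cells and sorted into populations labelled top and bottom, all from NOD mice. The genes were taken by name, 10 of the 23366 genes in the deposited table, and all 10 were found. Both populations came from 8- to 10-week-old animals of the inbred NOD strain, which develops autoimmune diabetes, and no transgene or treatment is labelled for either. Each population had 4 libraries, each amplified from about 1000 cells. Libraries 1 and 2 of each population were in batch 1 and libraries 3 and 4 in batch 2, as the labels name the batches. The labels do not say which marker separated top from bottom, nor whether each library had its own animals. The p-values therefore weigh the differences against library-to-library spread, part of which may be technical.

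Glycolysis splits glucose into pyruvate in the cytosol and yields ATP and NADH. Beta cells use it as a glucose sensor, and the high-affinity hexokinases and lactate dehydrogenase are normally held low there so that insulin release follows blood glucose. Phosphofructokinase, a tetramer of liver (Pfkl), muscle (Pfkm) and platelet (Pfkp) subunits, makes the committed step further down, and the enzymes after it are abundant in nearly all cells.

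None of the 9 members that could be tested was called different between the populations. Pfkp came nearest, and it was the single member whose 4 bottom libraries all lay above its 4 top libraries. The abundant enzymes Gapdh and Pgk1, and the summed reads of Eno1 and its near-identical copy, were high in both bottom libraries of batch 1 and below the top mean in both of batch 2. Hexokinase 2 reads were absent from all 4 top libraries and present in 3 bottom libraries.

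Total estimated counts ranged from 6657639 to 9366913 in top libraries and from 7256042 to 11262368 in bottom libraries. Levels are CPM, counts scaled to a common library size, after TMM scaling, which corrects that size for differences in composition. A log2 difference below is the fitted log2 fold change of bottom against top, positive where bottom was higher. The 10 members together took 0.0751% to 0.118% of the counts in top libraries, 0.300% in bottom 1, 0.186% in bottom 2, 0.106% in bottom 3 and 0.119% in bottom 4. Of 10 beta cell markers 9 had counts in both populations and Mafa had none, and their sum was 344010 to 505630 CPM in top and 38729 to 81375 CPM in bottom. Alpha cell markers (8 of 8 with counts in both) summed to 65251 to 138250 CPM in top and 29144 to 142250 CPM in bottom. Delta cell markers (5 of 5 with counts in both populations) summed to 2657 to 5311 CPM in top and 33404 to 57833 CPM in bottom. Bottom 1 went against the beta cell label, with alpha (51194 CPM), delta (52685 CPM) and PP and epsilon (77104 CPM) marker sums each above its beta marker sum, and in bottom 2 the alpha sum (142250 CPM) and the PP and epsilon sum (91991 CPM) were above it. In bulk samples fewer cells of a type and less RNA per cell cannot be told apart. No pair of libraries held identical values.

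Hexokinases trap glucose in the cell as glucose-6-phosphate. Hk1, the widely expressed high-affinity form, stood at 1.15, 1.88, 1.36 and 0 CPM in top 1 to top 4 and at 0, 4.49, 6.004 and 0.278 CPM in bottom 1 to bottom 4. The populations overlapped, and the estimate rests on 34 counts in all top libraries and 108 in all bottom libraries (log2 difference 1.35, SE 1.58, n = 4, edgeR quasi-likelihood test, adjusted p = 0.864). Its sign turned without bottom 3 (log2 difference -0.08).

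Hk2, the inducible high-affinity form of muscle and growing cells, had 0 counts in all 4 top libraries and 91 counts in bottom, at 0.546, 0, 3.05 and 5.28 CPM in bottom 1 to bottom 4. Against a floor of 3 counts over the 4 top libraries, its pooled bottom level of 2.27 CPM was 22.1-fold higher. Without bottom 4 it was 11.32-fold higher. That floor allows for counting error only and the reads are amplified, so these ratios are not lower bounds. Bottom 2 also had 0 counts. Hk2 did not pass the filter on low counts, so it has no test in the 8 libraries. Without that filter its adjusted p was 0.324 (edgeR). Both batch 2 bottom libraries also held the most fibroblast and endothelial transcripts: fibroblast and stellate cell markers (7 of 8 with counts in top and 8 of 8 in bottom) summed to 218 and 788 CPM in bottom 3 and bottom 4, to 3.28 and 181 CPM in bottom 1 and bottom 2, and to at most 16.0 CPM in top, where Col1a1 was at 0. Endothelial markers (2 of 6 with counts in top, where Cdh5, Kdr, Vwf and Plvap were at 0, and 6 of 6 in bottom) summed to 0.765, 15.1, 33.6 and 242 CPM in bottom 1 to bottom 4 and to at most 6.67 CPM in top. Their part in the Hk2 reads was not tested.

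Per kilobase of transcript, Hk1 averaged 0.285 ± 0.206 CPM per kb in top and 0.699 ± 0.783 CPM per kb in bottom (SD, n = 4). Hk2 averaged 0.403 ± 0.442 CPM per kb in bottom.

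Gpi1, the isomerase that turns glucose-6-phosphate into fructose-6-phosphate, stood at 156, 102, 82.7 and 74.8 CPM in top 1 to top 4 and at 278, 104, 91.0 and 143 CPM in bottom 1 to bottom 4. The libraries overlapped, with bottom 1 the highest (log2 difference 0.57, SE 0.36, n = 4, edgeR adjusted p = 0.673). The estimate was 0.54 in batch 1 alone and 0.58 in batch 2 alone, and 0.22 without bottom 1.

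Among the phosphofructokinase subunits, Pfkp stood at 15.2, 8.04, 5.56 and 1.91 CPM in top 1 to top 4 and at 27.2, 66.0, 39.9 and 16.9 CPM in bottom 1 to bottom 4. Every bottom library lay above every top library, though top 1 and bottom 4 were close. Means were 7.69 ± 5.63 and 37.5 ± 21.2 CPM (SD, n = 4), a log2 difference of 2.45 (SE 0.66, 95% interval 0.98 to 3.93). Its adjusted p was 0.196 (edgeR over 11721 genes), so the difference did not pass the threshold of 0.05. The log2 difference was 1.98 in batch 1 alone and 2.93 in batch 2 alone, and the test of a difference between the batches gave an adjusted p of 0.955 (edgeR interaction). Of all tested genes, 3.31% had every bottom library above every top library, and 1 of the 9 tested members did.

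The other subunits did not share this order. Pfkl stood at 14.5, 21.7, 7.05 and 19.4 CPM in top 1 to top 4 and at 6.23, 28.6, 8.22 and 6.95 CPM in bottom 1 to bottom 4 (log2 difference -0.43, SE 0.72, n = 4, edgeR adjusted p = 0.907). Bottom 2 was the highest of all 8 libraries and the other 3 bottom libraries lay near or below the lowest top library. Without top 4 the Pfkl difference was -0.0055, and without bottom 2 it was -1.07. Pfkm stood at 30.4, 33.1, 10.5 and 6.67 CPM in top and at 13.4, 20.004, 17.8 and 5.37 CPM in bottom, in the same order of libraries, and both top libraries of batch 1 were the highest (log2 difference -0.25, SE 0.66, n = 4, edgeR adjusted p = 0.943). Its sign turned without bottom 1 and in batch 2 alone (log2 difference 0.0025 and 0.44), and also with scaling by library size alone (0.09).

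The make-up of the phosphofructokinase reads differed between the populations in every library. Pfkp made up 25.4%, 12.8%, 24.1% and 6.82% of the counts of the 3 subunit genes in top 1 to top 4, with exact 95% binomial intervals of 21.3 to 29.8, 9.98 to 16.0, 18.1 to 30.8 and 3.57 to 11.6. It made up 58.0%, 57.6%, 60.5% and 57.8% in bottom 1 to bottom 4, with intervals of 53.2 to 62.8, 54.8 to 60.4, 56.6 to 64.4 and 52.1 to 63.3. These intervals cover counting error only, since reads from amplified cDNA carry no molecular identifiers here and are not separate molecules. The mean share was 17.3% ± 8.96 in top and 58.5% ± 1.38 in bottom (SD, n = 4), a difference of 41.2 percentage points that was 38.7 in batch 1 and 43.7 in batch 2 and lay between 37.8 and 43.9 when any single library was left out. Pfkm made up 23.9% to 52.7% in top and 17.5% to 28.7% in bottom, and Pfkl 24.2% to 69.3% and 12.5% to 24.96%. Shares were also taken within the hexokinase, aldolase and enolase genes. Among those only Aldoc was separate, at 5.39% to 10.9% of aldolase counts in top and 2.29% to 4.92% in bottom. How often a share separates the populations over all gene families was not computed. A share within a library does not depend on how libraries are scaled. It is given as a description with no test, because the members were chosen together, and a lower Pfkl or Pfkm raises the Pfkp share as a higher Pfkp does. Per kilobase, the means were 7.01 ± 4.69 (Pfkm), 4.20 ± 1.74 (Pfkl) and 1.86 ± 1.36 (Pfkp) CPM per kb in top, and 4.92 ± 2.24, 3.35 ± 2.89 and 9.05 ± 5.12 CPM per kb in bottom (SD, n = 4). Delta cell markers, whose sums are given above, and PP and epsilon cell markers (2 of 3 with counts in top, where Ghrl was at 0, and 3 of 3 in bottom), at 1196 to 2356 CPM in top and 11342 to 91991 CPM in bottom, were also higher in every bottom library. So were duct cell markers (8 of 8 with counts in both), at 408 to 690 CPM in top and 991 to 1552 CPM in bottom. The largest parts of the duct sum in bottom were Krt8, Spp1 and Krt18 (means 502, 269 and 232 CPM). Krt7 and Cftr of the same list were lower in bottom (log2 difference -0.63 and -0.40). The part of these cell types in the Pfkp level was not tested.

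**Figure D1:**
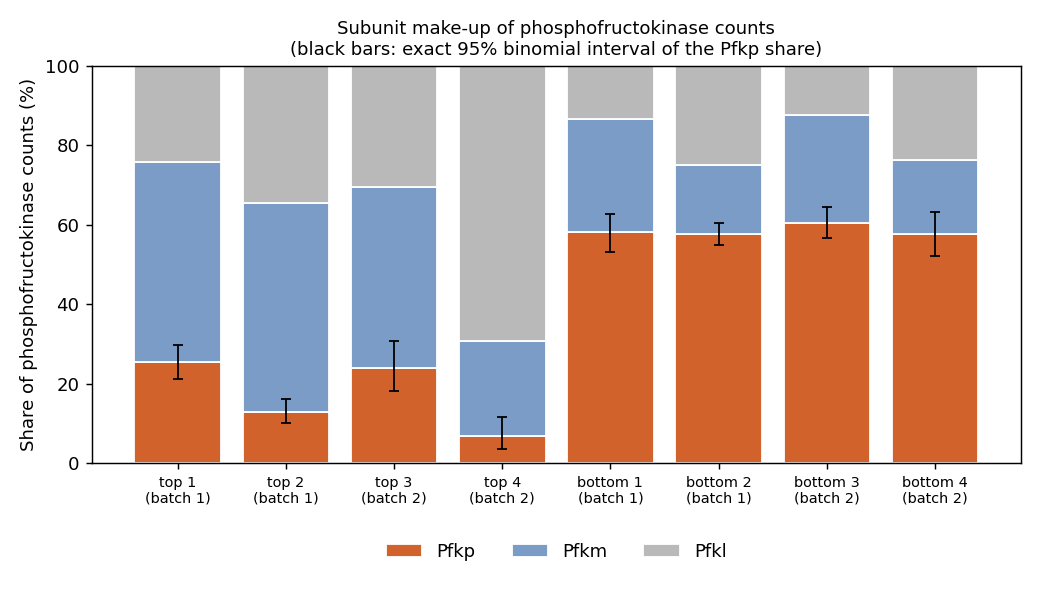
Stacked bars give the share of phosphofructokinase counts (%, vertical axis) from Pfkp, Pfkm and Pfkl in each of the 8 libraries, with the exact 95% binomial interval of the Pfkp share. The Pfkp share lies between 6.82% and 25.4% in the 4 top libraries and between 57.6% and 60.5% in the 4 bottom libraries.

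Aldoa, the aldolase that cleaves fructose-1,6-bisphosphate, stood at 354, 477, 396 and 181 CPM in top 1 to top 4 and at 566, 570, 238 and 304 CPM in bottom 1 to bottom 4 (log2 difference 0.18, SE 0.29, n = 4, edgeR adjusted p = 0.904). Both batch 1 bottom libraries were above every top library and both batch 2 bottom libraries were below 3 of the 4 top libraries. The 95% interval of the difference, -0.48 to 0.84 on the log2 scale, is the narrowest of the tested members.

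Gapdh, which oxidises glyceraldehyde-3-phosphate and makes the NADH of the pathway, stood at 561, 444, 648 and 405 CPM in top 1 to top 4 and at 1695, 844, 316 and 354 CPM in bottom 1 to bottom 4. The bottom libraries of batch 1 were the highest of all and those of batch 2 the lowest of all. Means were 515 ± 111 and 802 ± 642 CPM (SD, n = 4), with a log2 difference of 0.34 (SE 0.45, edgeR adjusted p = 0.882). That estimate was 1.31 in batch 1 alone and -0.64 in batch 2 alone, and its sign also turned without top 2 (-0.0034) or bottom 1 (-0.07). Without bottom 1 the bottom mean was 505 CPM.

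Pgk1, the kinase of the first ATP-yielding step, was split between the batches in the same way. It stood at 86.0, 120, 125.1 and 105 CPM in top 1 to top 4 and at 341, 232, 87.5 and 99.97 CPM in bottom 1 to bottom 4 (log2 difference 0.59, SE 0.40, n = 4, edgeR adjusted p = 0.710). The estimate was 1.45 in batch 1 alone and -0.28 in batch 2 alone. A test of the difference between batches gave an adjusted p of 0.50 for Gapdh and 0.511 for Pgk1 (edgeR interaction over 11721 genes). Of these genes 0% were called and 7.55% had an unadjusted p under 0.05, which both members also had. Both bottom libraries above both top libraries in batch 1, with the reverse in batch 2, was the order of these 2 members and of 2.68% of all tested genes. Batch 1 alone had that order for 5 of the 9 tested members, Pfkp, Aldoa, Gapdh, Pgk1 and Eno1, and for 20.3% of all tested genes.

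The sequences before the start sites of 3 members are shown: Gapdh and Pgk1, which were split between batches, and Pfkp, whose populations were separate. They are the 250 bases before the RefSeq start site in GRCm38.p6, a later build than the mm9 of the counts, each in the direction of transcription. Capitals mark ACGTG or GCGTG on either strand (CACGT or CACGC when read on the other strand), the core letters that the hypoxia factor HIF-1, a known regulator of glycolytic genes, binds.
Gapdh (chr6:125165774-125166023, minus strand): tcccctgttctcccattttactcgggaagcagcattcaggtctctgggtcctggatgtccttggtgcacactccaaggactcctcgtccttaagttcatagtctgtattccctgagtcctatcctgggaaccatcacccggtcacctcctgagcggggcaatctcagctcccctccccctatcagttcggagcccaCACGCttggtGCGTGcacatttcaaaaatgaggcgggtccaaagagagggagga
Pgk1 (chrX:106186850-106187099, plus strand): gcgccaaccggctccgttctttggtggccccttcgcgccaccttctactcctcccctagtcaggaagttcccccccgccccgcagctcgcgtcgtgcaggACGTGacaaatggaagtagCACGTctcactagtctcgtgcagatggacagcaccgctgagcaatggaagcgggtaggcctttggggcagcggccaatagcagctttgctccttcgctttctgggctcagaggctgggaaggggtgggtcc
Pfkp (chr13:6648772-6649021, minus strand): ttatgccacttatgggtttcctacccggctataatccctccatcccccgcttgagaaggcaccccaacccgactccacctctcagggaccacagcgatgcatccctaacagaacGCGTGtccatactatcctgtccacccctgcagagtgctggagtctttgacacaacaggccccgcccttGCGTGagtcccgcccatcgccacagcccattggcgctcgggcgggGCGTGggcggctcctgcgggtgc
Pgk1 has 2 matches to ACGTG and none to GCGTG, Gapdh has 2 matches to GCGTG, and Pfkp has 3 matches to GCGTG. Members with neither pattern also hold matches: Hk2 has 2 to ACGTG and 1 window of Hk1 has 3 to GCGTG, while Gpi1 has none. Of the 3 in Hk1, 2 overlap within CACGCGTG. In 1 window of Pfkm the 2 matches to ACGTG are the 2 strands of a single CACGTG. Of 32851 RefSeq windows of this length 16.6% hold ACGTG, 28.2% hold GCGTG and 38.6% hold at least 1 of them, and the members hold at least 1 in 14 of their 18 windows, several of which overlap. A match is a description of letters and not a binding site. Hif1a itself stood at 52.1, 34.3, 49.8 and 41.1 CPM in top and at 27.9, 69.3, 19.2 and 57.2 CPM in bottom (log2 difference -0.04, SE 0.48, n = 4, edgeR adjusted p = 0.987).

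Eno1, the enolase that makes phosphoenolpyruvate, was listed at 23.6, 41.3, 76.2 and 0 CPM in top 1 to top 4 and at 138, 86.7, 0 and 31.7 CPM in bottom 1 to bottom 4 (log2 difference 0.27, SE 1.73, n = 4, edgeR adjusted p = 0.977). Its level is uncertain, because the table also holds Gm5506, which RefSeq names Eno1b, and 70.5% of the 50-base windows of the Eno1 transcript (GENCODE M21) recur exactly in the transcripts of that copy. Gm5506 took 57.8% to 82.6% of the counts of the pair in the 3 top libraries with Eno1 counts and 100% in top 4. It took 63.1% to 71.4% in the 3 bottom libraries with Eno1 counts and 100% in bottom 3. The summed level was 136, 124.7, 180 and 59.5 CPM in top 1 to top 4 and 481, 258, 20.3 and 85.8 CPM in bottom 1 to bottom 4, so the sum was nowhere at 0. Fitted as 1 gene the pair had a log2 difference of 0.17 (SE 0.72, n = 4, edgeR adjusted p = 0.965), and it was again highest in both batch 1 bottom libraries. The sign of Eno1 alone turned without top 1, top 2, top 4 or bottom 1 (log2 difference -0.35, -0.15, -0.03 and -0.11).

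**Figure D2:**
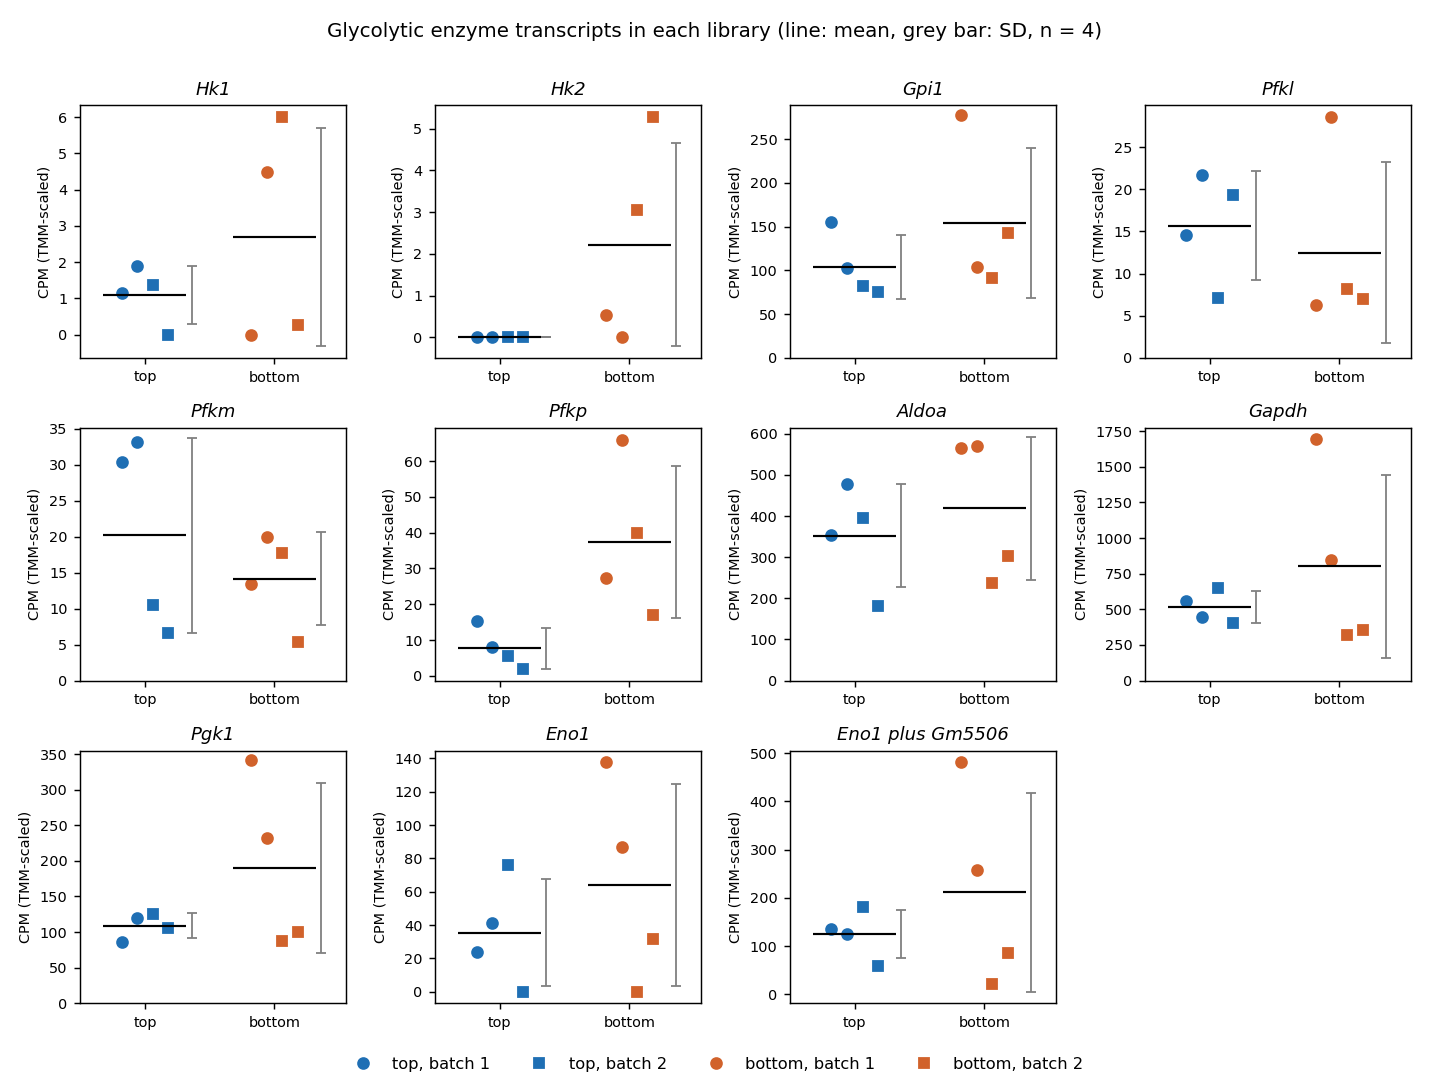
Each panel gives 1 member, or the sum of Eno1 and its copy Gm5506, in CPM after TMM scaling (vertical axis) for the 4 top and 4 bottom libraries, with circles for batch 1, squares for batch 2, a line at the mean and a bar of 1 SD. The populations are apart without overlap only for Pfkp, and the batch 1 bottom circles of Gapdh and Pgk1 lie above all other points.

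Per kilobase of transcript, the order of the member levels in top was Gapdh, Aldoa, Pgk1, Gpi1, Eno1, Pfkm, Pfkl, Pfkp, Hk1 and Hk2, from 362 ± 78.1 CPM per kb for Gapdh to 0 for Hk2 (SD, n = 4). The pair of Eno1 and Gm5506, over the Eno1 length, averaged 61.7 ± 24.6 CPM per kb in top (SD, n = 4), which would place it beside Pgk1 (59.7 ± 9.59) and above Gpi1 (36.0 ± 12.6). Of the neighbours in the order, Eno1 with Pfkm and Pfkm with Pfkl differed by less than the larger of their SDs. In bottom the order was the same except that Pfkp stood above Pfkm and Pfkl, and every neighbouring difference there except that between Aldoa and Pgk1 was within the larger SD. Lengths are of GENCODE M21 principal transcripts, which may differ from the transcripts the counts were made on.

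Both libraries in which Gapdh, Pgk1 and the Eno1 pair were highest also held intestinal transcripts. All 12 intestinal epithelium markers had counts in bottom and 9 of 12 in top, where Cdx1, Muc2 and Guca2a were at 0. Their sum was 1310, 123, 51.2 and 629 CPM in top 1 to top 4 and 21843, 5361, 43.7 and 13.4 CPM in bottom 1 to bottom 4 (difference of means, exact two-sided permutation p = 0.429). Relative to the mean of the 4 top libraries, Gapdh was at 3.29 and 1.64 in bottom 1 and bottom 2 and at 0.614 and 0.688 in bottom 3 and bottom 4. The same ratios were 3.13, 2.13, 0.803 and 0.917 for Pgk1, and 3.84, 2.06, 0.163 and 0.686 for the Eno1 pair. Tpi1, the triose phosphate isomerase beside Gapdh in the pathway, was at 4.92, 2.35, 0.813 and 0.948. Not every abundant enzyme was high in bottom 2: Gpi1 was at 2.68, 1.00, 0.877 and 1.37 in bottom 1 to bottom 4, and the mutase Pgam1, chosen after its values were seen, at 2.11, 0.548, 0.798 and 1.06. The pyruvate kinase Pkm, also chosen after its values were seen, was split like Gapdh, at 1.56, 1.40, 0.192 and 0.533. PP and epsilon markers were also highest in bottom 1 and bottom 2 (77104 and 91991 CPM, against 11342 and 22081 CPM in bottom 3 and bottom 4), as were delta markers (52685 and 57833 CPM, against 33715 and 33404 CPM). So were acinar cell markers (11 of 11 with counts in both populations), at 349 and 1872 CPM, against 252 and 135 CPM in bottom 3 and bottom 4 and at most 312 CPM in top. The part of these transcripts in the enzyme levels was not tested. Without both batch 1 bottom libraries no member was called, with 0.293% of all genes called, and the log2 differences of Gapdh, Pgk1 and Aldoa were -0.65, -0.30 and -0.09, while that of Pfkp was 2.91 (edgeR adjusted p = 0.312). With batch as a covariate, that fit compares the populations within batch 2 only.

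**Figure D3:**
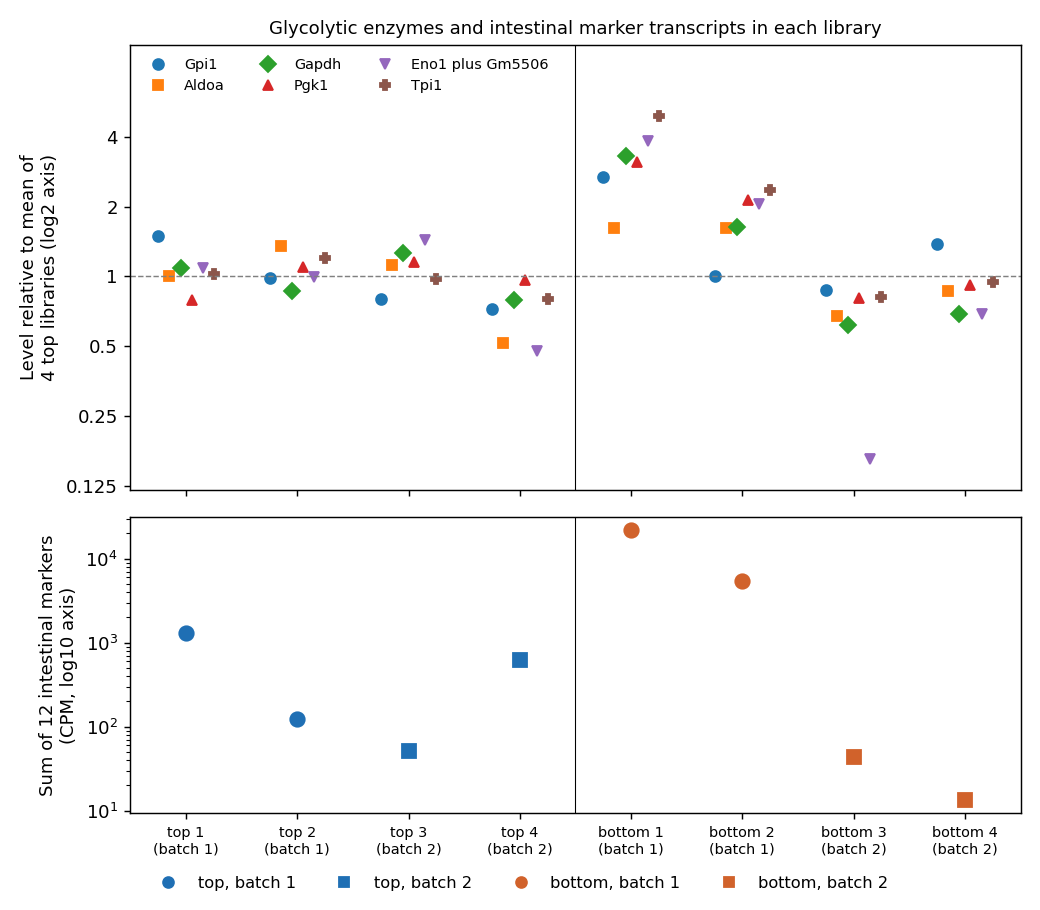
The upper panel gives the level of 5 abundant members, with Eno1 summed with Gm5506, and of Tpi1 in each library relative to the mean of the 4 top libraries (log2 axis), and the lower panel the summed CPM of 12 intestinal markers (log10 axis). Bottom 1 and bottom 2, with 21843 and 5361 CPM of intestinal markers, hold the highest Gapdh, Pgk1 and Tpi1 levels.

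Counted together, 0 of the 9 tested members were called, against 0.444% of all 11721 tested genes (33 higher in bottom, 0.282%, and 19 lower). By an unadjusted p under 0.05, 1 member passed, Pfkp, against 10.3% of all genes. DESeq2 called 1 member, Pfkp (log2 difference 2.49, adjusted p = 0.00314), where it called 5.03% of all genes. Limma-trend called 0 members and 1.24% of all genes. The adjusted p of Pfkp ranged from 0.00314 to 0.935 over all alternatives. Positive values were found for 7 of 9 members and 50.1% of all genes, with medians of 0.34 and 0.00 on the log2 scale. The member median ran from 0.11 (without top 1) to 0.64 (without top 3) over single omissions and was 0.12 without bottom 1. In batch 2 alone it was -0.08, with 4 of 9 members positive. There the filter on low counts left out Hk1 and kept Hk2. The 9 members are therefore not the same set as in the 8 libraries. Hk2 had 0 counts in both top libraries of that batch and passed the filter through bottom alone, so its positive sign was fixed. The count of positive members and the median in batch 2 alone both include it.

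Of 16 listed genes for the other glycolytic enzymes 11 were tested, none was called, 6 were positive and the median log2 difference was 0.17. Tpi1 (0.85, SE 0.42, edgeR adjusted p = 0.545) and the liver pyruvate kinase Pklr (1.18, SE 1.21, edgeR adjusted p = 0.834) had the 2 smallest p-values of that list. Pklr stood at 50.9 CPM in bottom 1 and at 4.42 to 10.3 CPM in the other bottom libraries. Gapdhs, Pgk2 and Pgam2, forms of testis and muscle, had 0 counts in all 8 libraries.

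None of the 7 tested genes that control the pathway was called by edgeR in the main fit, and their median was -0.52. The main fit used TMM scaling, the filter and the batch term over all 8 libraries. Pfkfb2 makes fructose-2,6-bisphosphate, the activator of phosphofructokinase. It stood at 231, 184, 475 and 219 CPM in top 1 to top 4 and at 17.7, 31.9, 44.6 and 236 CPM in bottom 1 to bottom 4. Bottom 1 to bottom 3 were far below all top libraries, and bottom 4 lay within the range of the top libraries (log2 difference -2.18, SE 0.61, n = 4, edgeR adjusted p = 0.214, called by DESeq2 at 0.00568 and by edgeR with no filter at 0.0431). The bottom mean was 82.5 CPM and 31.4 CPM without bottom 4. Tigar, a phosphatase of the same activator, listed as 9630033F20Rik, stood at 8.20 to 31.8 CPM in top and 0.874 to 9.73 CPM in bottom (-2.29, SE 0.75, edgeR adjusted p = 0.299, called by DESeq2 at 0.026).

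Among the linked lists, DESeq2 called named genes in that of gluconeogenesis and glucose-6-phosphate hydrolysis and in 5 others. In the main edgeR fit genes were called only in the gluconeogenesis list. Of its 7 tested genes 2 were lower in bottom, G6pc2 (log2 difference -2.41, SE 0.25, edgeR adjusted p = 0.00498) and the pyruvate carboxylase Pcx (-5.78, SE 0.94, edgeR adjusted p = 0.0424), against 0.162% of all genes called lower. G6pc2, which returns glucose-6-phosphate to glucose in islets and so opposes hexokinase, stood at 2051 to 3123 CPM in top and at 390 to 625 CPM in bottom. It was called in each omission of 1 library (adjusted p up to 0.0354), and Pcx was called in 1 of 8, without bottom 1 (0.0406 to 0.149 over the omissions). Neither was called in either batch alone, where the adjusted p of G6pc2 was 0.159 and 0.113 (edgeR). G6pc2 and Slc2a2 are also among the 10 beta cell markers, whose sum was lower in every bottom library. None of the 6 tested transporters was called in the main edgeR fit. The glucose transporter Slc2a2 had a log2 difference of -3.20 (SE 0.56, edgeR adjusted p = 0.0503, and 0.00597 without bottom 1, 0.016 without both batch 1 bottom libraries), and the lactate and pyruvate carrier Slc16a1 one of 4.51 (SE 0.87, edgeR adjusted p = 0.0692). Both were called by DESeq2 (adjusted p 7.2e-07 and 3.6e-07), by limma-trend (0.00915 and 0.0349), with library size alone (0.0471 for each) and with no filter (0.00167 and 0.0358).

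Beyond pyruvate, none of 15 tested genes was called in the main edgeR fit, with a median of 0.12. Lactate dehydrogenase A had a log2 difference of 3.37 (Ldha, SE 1.01, edgeR adjusted p = 0.254, called by DESeq2 at 0.00101 and by edgeR with no filter at 0.0482) and stood at 834 and 239 CPM in bottom 1 and bottom 2 and at 26.7 and 43.7 CPM in bottom 3 and bottom 4. Pdp2, which activates pyruvate dehydrogenase, stood at 19.96 to 41.4 CPM in top and 6.76 to 14.6 CPM in bottom (-1.46, SE 0.58, edgeR adjusted p = 0.407). None of 8 tested genes of the NADH shuttles was called in the main edgeR fit (median -0.06). Gpd2, the mitochondrial end of the glycerol phosphate shuttle that beta cells use to reoxidise glycolytic NADH, stood at 159, 134, 86.8 and 171 CPM in top 1 to top 4 and at 88.9, 24.3, 30.3 and 42.4 CPM in bottom 1 to bottom 4 (-1.60, SE 0.44, n = 4, edgeR adjusted p = 0.214, called by DESeq2 at 0.0348). Mdh2 had a log2 difference of 1.09 (SE 0.55, edgeR adjusted p = 0.563) and stood at 2607 CPM in bottom 1.

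The main edgeR fit called no gene among 8 of the pentose phosphate pathway, which branches off at glucose-6-phosphate (median -0.02). It also called none among 7 tested HIF-1 targets outside glycolysis (median -0.17). Of the 10 listed, Egln3, Adm and Car9 did not pass the filter and are not in that median. They had 6, 4 and 10 counts in top and 105, 23 and 221 in bottom, with 206 of the Car9 counts in bottom 1. G6pdx, the entry enzyme of the pentose branch, had a log2 difference of 2.28 (SE 0.80, edgeR adjusted p = 0.337, called by DESeq2 at 0.0384) and Taldo1 one of 0.68 (SE 0.34, edgeR adjusted p = 0.554). Vegfa, a HIF-1 target that encodes a blood vessel growth factor, stood at 105 to 152 CPM in top and 51.5 to 103 CPM in bottom (-0.68, SE 0.29, edgeR adjusted p = 0.455), and Higd1a had a log2 difference of 0.51 (SE 0.50, edgeR adjusted p = 0.821).

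**Figure D4:**
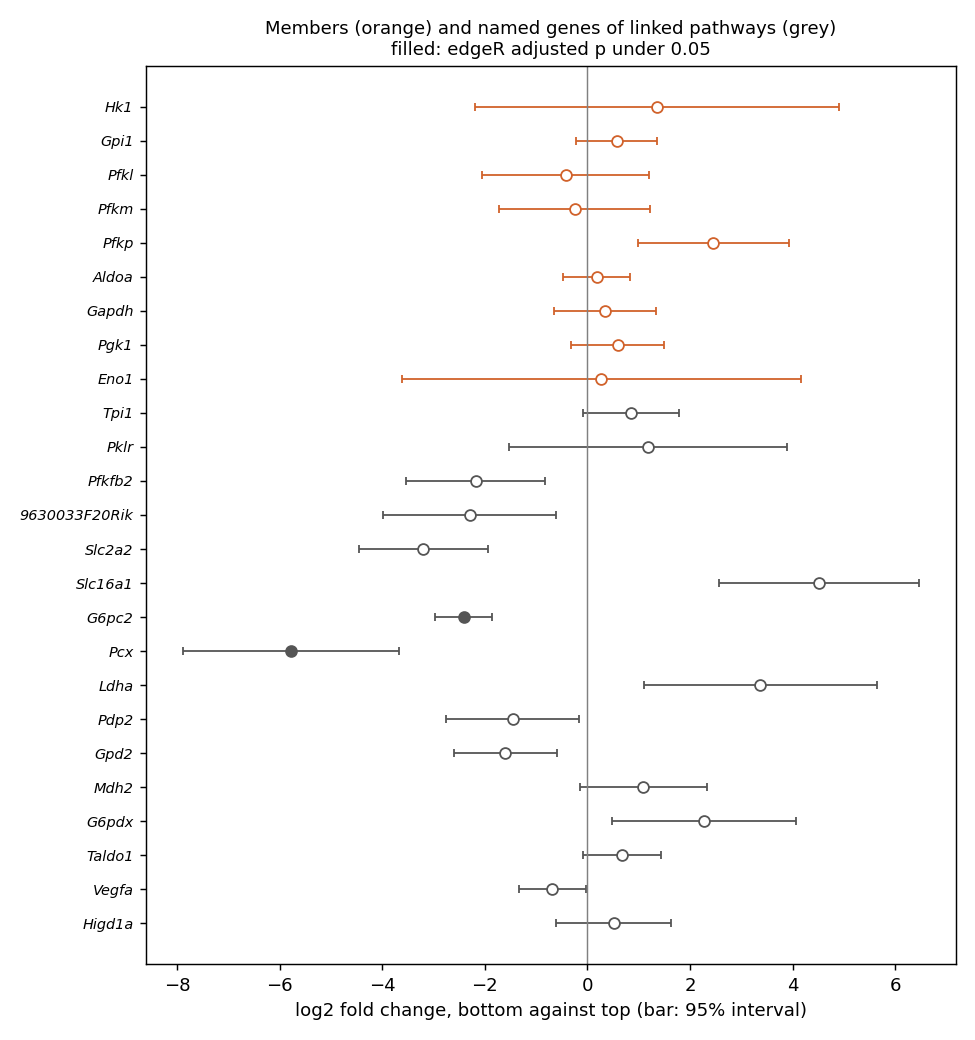
Points give the log2 fold change of bottom against top (horizontal axis) with its 95% interval, not adjusted for the number of genes, for the 9 tested members in orange and the named genes of linked pathways in grey, and filled points are called. Only G6pc2 and Pcx are filled, and among members the interval of Pfkp alone, 0.98 to 3.93, lies clear of 0.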

How the data were processed

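The deposited values were expected counts per gene, estimates that RSEM makes by dividing reads shared between genes. The submitters' processing notes list RSEM, edgeR and the mouse build mm9, while versions, aligner and annotation are not given in the sources used here. cDNA was made with the SMARTer Ultra Low kit and libraries with Nextera XT, per the labels' protocols. Expected counts were rounded (34.8% of values were not whole). The kit is not stated to keep strand, so overlapping antisense reads could not be separated. Counts were scaled by TMM and filtered by filterByExpr, which left 11721 genes. Bottom was compared with top by the edgeR 4.0.16 quasi-likelihood test in R 4.3.3 with batch as a covariate, with Benjamini-Hochberg adjustment over all tested genes and a threshold of 0.05. The common biological coefficient of variation was 0.806. The code was tested on simulated data. Alternatives used DESeq2 1.42.0, limma 3.58.1, other scalings, no filter, no batch term, single batches, a replicate block and each library left out. After the data were seen, 2 more were added: Eno1 summed with Gm5506, and leaving out both batch 1 bottom libraries. The members and gene lists were chosen with earlier results of these data known. All members are named with values, and from each other pathway list the called genes and the 2 with the smallest p. Hif1a, Pgam1, Pkm, Aldoc, Egln3, Adm and Car9 were added after their values were seen, as were the named duct cell markers. Some items are not reported here. Marker sums were compared by exact permutation over 70 relabellings.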

Additional observations from a re-analysis of the deposited data

Results flagged for a closer look

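For 2 members, Gapdh and Pgk1, the populations were apart without overlap in both batches and in opposite directions, and both bottom libraries lay above both top libraries in batch 1 and below both in batch 2. The change in log2 fold change from batch 1 to batch 2 was -1.99 for Gapdh (SE 0.57) and -1.77 for Pgk1 (SE 0.54). As given above, neither passed the interaction test after adjustment (edgeR adjusted p = 0.50 and 0.511).

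Single libraries stood apart from the other 3 of their population in 6 of 55 checks, where chance gives about 1 in 20. Pfkl was at 28.6 CPM in bottom 2 against 6.23 to 8.22 CPM in the other bottom libraries. Pfkfb2 was at 475 CPM in top 3, against 184 to 231 CPM in the other top libraries, and at 236 CPM in bottom 4, against 17.7 to 44.6 CPM in the other bottom libraries. Pklr was at 50.9 CPM in bottom 1 against 4.42 to 10.3 CPM. Higd1a, a mitochondrial gene induced by hypoxia, was at 98.9 CPM in top 4 against 36.6 to 45.6 CPM. The Pfkp share of phosphofructokinase counts was 60.5% in bottom 3 against 57.6% to 58.0%, a gap that is small beside its counting interval of 56.6% to 64.4%.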

How the results depend on the processing

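The 52 called genes became 589 with DESeq2, 145 with limma-trend, 204 with no filter on counts, 32 with no batch term, 2 in batch 1 alone and 2 in batch 2 alone. Leaving out single libraries gave 12, 8, 28 and 14 calls (top 1 to top 4) and 60, 33, 23 and 11 calls (bottom 1 to bottom 4). The count of called members stayed at 0 in every alternative except DESeq2, which called 1. Scaling by library size alone moved the median of all genes to 0.34 and gave 55 higher and 16 lower calls, against 33 and 19. A replicate block of batch and title number gave 0 calls (710 genes with an unadjusted p under 0.05) with 4 of 9 members positive, but only the libraries numbered 1 are shared between populations within a batch, and their deviations correlated at 0.0887 and 9.2e-05, so the numbers were not taken as pairs. Signs of members turned as follows. In batch 2 alone the log2 fold changes were 0.44 for Pfkm, -0.08 for Aldoa, -0.64 for Gapdh, -0.28 for Pgk1 and -1.25 for Eno1. Without both batch 1 bottom libraries they were 0.42, -0.09, -0.65, -0.30 and -1.25. With batch as a covariate, that fit also compares the populations within batch 2 only. It is therefore not separate from the fit of batch 2 alone. With the replicate block the log2 fold changes were -0.68 for Hk1, -0.03 for Aldoa and -2.63 for Eno1, and with library size alone 0.09 for Pfkm. Over single omissions the values ran from -0.08 to 1.91 for Hk1, -0.83 to 0.0025 for Pfkm, -0.07 to 0.64 for Gapdh and -0.35 to 2.92 for Eno1. Of the linked genes, Pklr, Mdh2 and Higd1a turned to -0.48, -0.10 and -0.30 in batch 2 alone and to -0.49, -0.11 and -0.31 without both batch 1 bottom libraries, where Tpi1 was -0.0071. The cause was not tested. Gpi1, Pfkl and Pfkp kept their sign in all 20 alternatives, though over single omissions Pfkl ran from -1.07 to -0.0055, Gpi1 from 0.22 to 0.81 and Pfkp from 2.06 to 2.75. Hk1 and Hk2 rest on 142 and 91 counts in all.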
